A study of Mus musculus with 3 samples.

Results

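The mitochondrial ribosomal protein genes are those whose symbols begin with Mrpl or Mrps followed by a digit. Of 20574 gene symbols in each deposited table, 66 met this rule, 42 named for the large subunit and 24 for the small subunit. RNA had been sequenced from primary mouse peritoneal macrophages kept in DMEM, with 1 library for each of 3 conditions. The macrophages had been given apoptotic cells for 5 h at 5 per macrophage, given LPS at 100 ng/ml for 5 h, or left without coculture, and all 3 titles carry the letters WT. LPS is a bacterial cell wall lipid that sets off inflammatory signalling. The strain, age, sex and number of the mice, the source of the apoptotic cells and the time at which the untreated cells were taken are not stated in the sources at hand, so treatment cannot be told apart from time in culture or handling. The series title links the uptake of dying cells by macrophages to mitochondrial respiration. Cells not taken up had been rinsed off, per the series' design text. With 1 library a condition there was no test, and every ratio below compares libraries.

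Mitochondria carry their own ribosome, which translates the few proteins encoded by mitochondrial DNA, all of them core subunits of the respiratory chain and ATP synthase. Its RNA is made inside the organelle, but its proteins are encoded in the nucleus, made on cytosolic ribosomes and imported. Some of these proteins have a counterpart in the bacterial ribosome and others are found only in mitochondria. A few symbols mislead: the products of Mrps18a and Mrps30 sit in the large subunit, and that of Mrps36 has since been assigned to the 2-oxoglutarate dehydrogenase complex.

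The promoters of some members that the results turn on are printed here, because many genes of mitochondrial proteins are known to carry sites for ETS-family factors such as GABP, for NRF1 or for YY1. Each is the 250 bases before the RefSeq start in GRCm38.p6, the assembly that mm10 also represents, read 5′ to 3′ on the gene's strand. Capitals mark CCGGAAG (ETS family), CGCATGCG (the core of the NRF1 motif), AAGATGGC (YY1) and CCAAT (the CCAAT box), on either strand. Mrps12 and Mrpl41 were higher with apoptotic cells than without treatment, Mrps25 was lower in both treated libraries, Mrpl34 was higher with apoptotic cells than with LPS, Mrpl43 was nearly level, and Mrpl9 carries the NRF1 core.
Mrps12: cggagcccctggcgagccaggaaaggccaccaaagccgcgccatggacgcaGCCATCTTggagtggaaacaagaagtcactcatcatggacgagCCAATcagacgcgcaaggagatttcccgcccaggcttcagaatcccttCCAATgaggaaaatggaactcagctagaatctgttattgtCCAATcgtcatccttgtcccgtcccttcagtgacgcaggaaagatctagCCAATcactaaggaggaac
Mrpl41: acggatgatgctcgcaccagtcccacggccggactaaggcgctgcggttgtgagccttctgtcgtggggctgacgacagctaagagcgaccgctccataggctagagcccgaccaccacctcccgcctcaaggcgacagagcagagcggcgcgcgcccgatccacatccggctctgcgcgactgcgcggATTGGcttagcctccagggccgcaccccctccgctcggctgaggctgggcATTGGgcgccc
Mrps25: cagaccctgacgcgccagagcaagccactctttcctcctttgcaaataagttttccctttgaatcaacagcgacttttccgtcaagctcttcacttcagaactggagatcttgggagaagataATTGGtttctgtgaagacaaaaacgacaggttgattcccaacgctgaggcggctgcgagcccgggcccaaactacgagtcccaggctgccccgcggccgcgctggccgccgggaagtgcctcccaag
Mrpl34: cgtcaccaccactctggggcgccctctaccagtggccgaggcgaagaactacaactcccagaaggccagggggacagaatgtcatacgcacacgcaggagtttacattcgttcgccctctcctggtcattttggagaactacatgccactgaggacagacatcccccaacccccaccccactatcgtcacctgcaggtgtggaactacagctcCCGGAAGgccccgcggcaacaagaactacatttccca
Mrpl43: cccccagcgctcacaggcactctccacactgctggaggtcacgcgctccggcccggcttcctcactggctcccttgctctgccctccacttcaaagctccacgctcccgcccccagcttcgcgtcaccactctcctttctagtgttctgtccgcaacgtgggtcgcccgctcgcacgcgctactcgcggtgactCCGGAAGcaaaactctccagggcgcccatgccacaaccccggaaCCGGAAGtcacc
Mrpl9: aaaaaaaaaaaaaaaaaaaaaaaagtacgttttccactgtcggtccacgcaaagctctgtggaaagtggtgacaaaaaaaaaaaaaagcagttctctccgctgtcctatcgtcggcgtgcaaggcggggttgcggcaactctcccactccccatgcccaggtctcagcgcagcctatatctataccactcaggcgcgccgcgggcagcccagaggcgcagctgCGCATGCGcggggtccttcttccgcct

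They lie at chr7:28741822-28742071 on the minus strand for Mrps12, chr2:24975099-24975348 on the minus strand for Mrpl41 and chr6:92184024-92184273 on the minus strand for Mrps25. Those of Mrpl34 at chr8:71464676-71464925 and Mrpl9 at chr3:94443086-94443335 are on the plus strand, and that of Mrpl43 at chr19:45006443-45006692 is on the minus strand. Mrps12 held the YY1 motif and the CCAAT box in 4 places, with an ETS motif just after its start, and Mrpl43 held the ETS motif in 2 places. Mrpl41 and Mrps25, which differ in direction, held only the CCAAT box. Of the 66 members, 58 matched a RefSeq promoter, in 63 windows that run on to 50 bases after the start. The ETS motif was in 19 of these windows (30.2%), against 15.7% of the 9769 windows of genes above 0 in any library and 8.86% of all 32851 windows. The YY1 motif was in 12 (19.0%), against 3.93% and 2.75%. The NRF1 core was in 7 (11.1%), against 3.45% and 1.87%. The E-box CACGTG was in 9.52%, against 9.14% and 7.15%, the CCAAT box in 41.3%, against 38.2% and 37.4%, and TATAAA in 6.35%, against 7.65% and 13.6%. Matches of different motifs did not overlap in the printed sequences, and a match is a description of the letters only.

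The values are treated here as FPKM, a fragment count scaled for transcript length and library size, so levels can be compared between genes per length. They summed to 197222 with apoptotic cells, 200224 with LPS and 199881 in the untreated library. From the best-fitting step between the smallest values, a loose fit, 1 FPKM on 1 kb was taken as about 3.33, 3.13 and 3.17 fragments in that order. Members above 0 rested on an estimated median of 71.6 fragments with apoptotic cells, 53.1 with LPS and 71.7 without treatment, with a lowest estimate of 9.7, so counting error is large for the shortest and lowest genes. Of 8 macrophage markers sought, 4 had a row. They summed to 744, 1.53 and 360 FPKM after apoptotic cells, with LPS and without treatment, with 0, 2 and 1 listed at 0. The low LPS sum thus rests on listed zeros. Fcgr1, the only one that could be compared between LPS and no treatment, stood at 3.29, 0.377 and 0.115 FPKM, higher with LPS. Csf1r was listed at 185, 0 and 56.3 FPKM and Cd14 at 555, 0 and 303 FPKM after apoptotic cells, with LPS and without treatment. Markers of other cells differed between the libraries. T cell and thymocyte genes (12) summed to 109, 2.43 and 46.0 FPKM in the same order, with 1, 5 and 7 of them listed at 0. Rag1, at 41.2 FPKM after apoptotic cells, was among those listed at 0 without treatment. The 4 that could be compared between these libraries, Cd4, Cd3g, Thy1 and Dntt, were all lower with apoptotic cells as deposited. Their median log2 ratio was -0.21, against -0.13 over all genes, so the sums do not follow them. B cell genes (8) summed to 124, 100.1 and 3.44 FPKM, with 3, 1 and 7 at 0. The low untreated sum thus rests on listed zeros. Cr2, the only B cell gene above 0 there, went the other way, at 0.0965, 0.198 and 3.44 FPKM. Mast cell genes (6) summed to 13.8, 10.2 and 93.0 FPKM, with 1, 0 and 1 at 0. Neutrophil genes (7) summed to 137, 224 and 54.6 FPKM, with 2, 4 and 1 at 0. Most of each neutrophil sum was S100a8, at 116.4, 221.5 and 48.07 FPKM, so the sums largely follow that gene. Camp was also highest with LPS, whereas Mmp8 was lowest there, at 15.98, 0.548 and 2.48 FPKM. S100a9, Ngp, Mpo and Elane were those listed at 0 with LPS. Mesothelial and fibroblast genes (6) summed to 2.05, 1.13 and 19.5 FPKM, with 2, 4 and 1 at 0. The other cells' part in the results below was not tested, and fewer cells of a type cannot be told apart from less RNA per cell.

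An exact 0 in these tables can be a failed estimate, since of 68 cytosolic ribosomal protein genes 16, 8 and 17 were also at 0 with apoptotic cells, with LPS and without treatment, so a 0 is given only as listed. Of the 66 members, 26 were above 0 in all 3 libraries, 14 with apoptotic cells and LPS only, 6 with LPS and in the untreated library only, and 3 with apoptotic cells and in the untreated library only. Another 16 were above 0 in a single library, 5 with apoptotic cells, 5 with LPS and 6 without treatment. Mrpl48, which encodes a protein of the central protuberance, was listed at 0 in all 3. In total 18 members were listed at 0 with apoptotic cells, 15 with LPS and 25 without treatment.

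Among members above 0 in both other libraries, 6 of 32 were listed at 0 with apoptotic cells, where the share over all genes was 18.6%. With LPS it was 3 of 29 (all genes 21.9%), and in the untreated library 14 of 40 (all genes 38.6%). Members listed at 0 were not only low ones. Mrpl33 was listed at 105 FPKM after apoptotic cells and at 0 in both others, Mrpl23 at 69.9 FPKM in untreated cells and at 0 in both treated ones, and Mrpl52 at 91.4 FPKM after apoptotic cells, 0 with LPS and 93.9 FPKM without treatment. For these genes no ratio is given. Members with a listed 0 had a median of 4.5 annotated transcripts (range 2 to 11), against 3 (range 1 to 9) for those above 0 in every library. The 3 members with a single annotated transcript, Mrpl34, Mrpl50 and Mrps28, were all above 0 in every library. Others listed at 0 in 1 library, with at least 20 FPKM in both others, were Mrpl27, at 40.5 FPKM after LPS and 22.7 FPKM without treatment, Mrps24, at 25.5 and 29.0 FPKM, Mrps7, at 27.5 FPKM after apoptotic cells and 24.3 FPKM after LPS, Mrps15, at 32.6 FPKM after apoptotic cells and 26.0 FPKM without treatment, Mrps18a, at 45.7 and 36.4 FPKM after apoptotic cells and LPS, and Mrps33, at 25.9 and 25.8 FPKM.

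**Figure D1:**
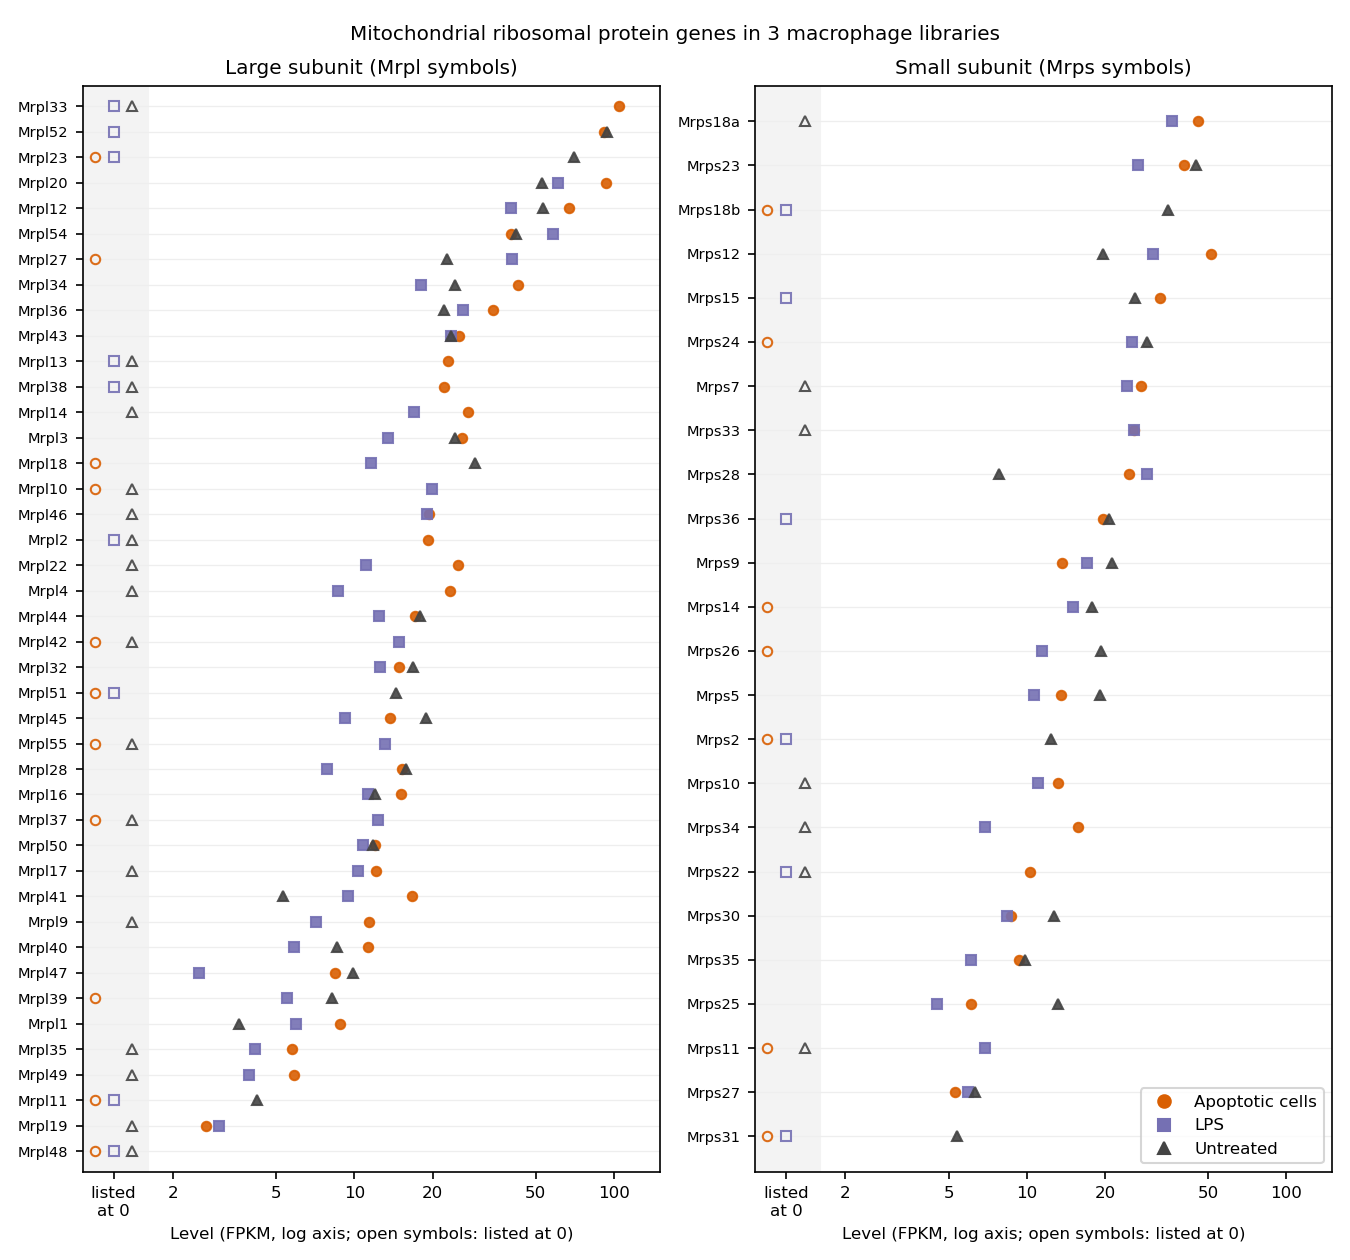
Level of each of the 66 members in the apoptotic-cell, LPS and untreated libraries (FPKM, log axis), with genes ordered by their mean over the libraries above 0 and 1 point per library. Open symbols in the grey strip are listed at 0; among members above 0 in all 3 libraries Mrpl20 is highest with apoptotic cells, at 93.0 FPKM, and Mrpl47 is lowest, at 2.51 FPKM after LPS.

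Where they were above 0, members spanned 2.69 to 105 FPKM after apoptotic cells (median 18.1), 2.51 to 61.0 FPKM after LPS (median 11.6) and 3.596 to 93.9 FPKM without treatment (median 18.9). Genes averaging 1 FPKM or more had medians of 8.18, 6.63 and 9.81 FPKM in the same order. Different genes are above 0 in each library, so these medians do not compare like with like. Over the 26 members above 0 in all 3, the medians were 15.2, 11.8 and 17.3 FPKM and the sums 634, 468 and 519 FPKM. The LPS library held the lowest value for 17 of the 26 members, or 65.4%, where the share over all genes was 53.3%. The highest value was with apoptotic cells for 12 members (all genes 35.2%), with LPS for 2 (16.1%) and without treatment for 12 (48.7%). The apoptotic-cell library was highest for 11 of 17 large-subunit members and 1 of 9 small-subunit members, whereas the untreated library was highest for 5 of 17 and 7 of 9. No test of that split was made.

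The highest levels among those 26 were in the large subunit. Mrpl20 stood at 93.0 FPKM after apoptotic cells, 61.0 FPKM after LPS and 52.9 FPKM without treatment. Mrpl12, whose product forms the stalk that recruits translation factors, stood at 67.0, 40.1 and 53.5 FPKM in the same order, and Mrpl54 at 40.1, 58.2 and 42.1 FPKM. Mrps23, at 40.3, 26.7 and 45.1 FPKM, and Mrps12, at 51.1, 30.5 and 19.7 FPKM, led the small subunit. These 5 genes do not share an order of libraries: Mrpl20, Mrpl12 and Mrps12 were highest with apoptotic cells, Mrpl54 with LPS and Mrps23 without treatment. The lowest means were those of Mrps27, at 5.28, 5.95 and 6.30 FPKM, Mrpl1, at 8.80, 5.96 and 3.596 FPKM, and Mrpl47, at 8.43, 2.51 and 9.86 FPKM. Of these, Mrps27 was close to level and Mrpl1 and Mrpl47 were not.

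The comparison of apoptotic cells with no treatment asks how the genes moved with the uptake of dying cells. Mrps28, Mrpl41, Mrps12 and Mrpl1 were at least 2-fold higher with apoptotic cells, and Mrps25 was at least 2-fold lower. Most of the other members that could be compared lay within 1.5-fold, and as deposited the group as a whole was level. Ratios are given as log2 of (FPKM + 1) over (FPKM + 1), which understates low genes, for members above 0 in both libraries. Of 29 such members 4 were at least 2-fold higher, or 12.4% over all genes, and 1 was at least 2-fold lower, or 16.4% over all genes. The members' median was -0.04 (quartiles -0.16 and 0.36), against -0.13 over 3369 genes, and 14 members were above 0 on this scale and 15 below (44.5% and 55.4% over all genes). With median-of-ratios scaling, which moved the median of all genes to 0.04, the members' median was 0.17.

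Mrps28 (chr3:8802146-8923918, minus strand, GENCODE M21 on GRCm38) encodes a small-subunit protein related to the bacterial protein S1 at the path of the mRNA. It stood at 24.7 FPKM after apoptotic cells, 29.2 FPKM after LPS and 7.80 FPKM without treatment. Both treated libraries were well above the untreated one and close to each other. Its log2 ratio with apoptotic cells was 1.55, and the plain ratio of 3.17 had an estimated 95% counting interval of 1.77 to 6.41, which covers counting error only and rests on annotated transcript lengths. The single annotated transcript has 783 bases, and the untreated value rests on an estimated 14.4 fragments. Mrps12, whose product lies at the decoding centre, had a log2 ratio of 1.33 (plain ratio 2.59, counting interval 1.76 to 3.85), with LPS between the other libraries. Mrpl41, which encodes a mitochondria-specific large-subunit protein, stood at 16.6, 9.48 and 5.30 FPKM after apoptotic cells, with LPS and without treatment, in the same order of libraries as Mrps12. Its log2 ratio was 1.48, on an estimated 31.9 and 9.7 fragments with apoptotic cells and without. Mrpl1 (chr5:96209493-96266727, plus strand), whose product forms the mobile stalk beside the exit site for tRNA, had a log2 ratio of 1.09 (plain ratio 2.45, counting interval 1.66 to 3.68).

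Mrps25, a mitochondria-specific small-subunit protein gene, stood at 6.08 FPKM after apoptotic cells, 4.52 FPKM after LPS and 13.2 FPKM without treatment. Both treated libraries were below the untreated one. The log2 ratio with apoptotic cells was -1.01, with a plain ratio of 0.459 (counting interval 0.366 to 0.573). It was just past the 2-fold limit, and no longer so with a pseudocount of 5 or with median-of-ratios or upper-quartile scaling. Of the 29 members, 8 had an estimated counting interval wholly above 1 (26.5% over all genes) and 5 wholly below 1 (34% over all genes). The 8 were Mrps28, Mrpl41, Mrps12, Mrpl1, Mrpl20, Mrpl34, Mrpl36 and Mrpl12. The 5 were Mrps25, Mrps9, Mrps30, Mrps5 and Mrpl45.

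**Figure D2:**
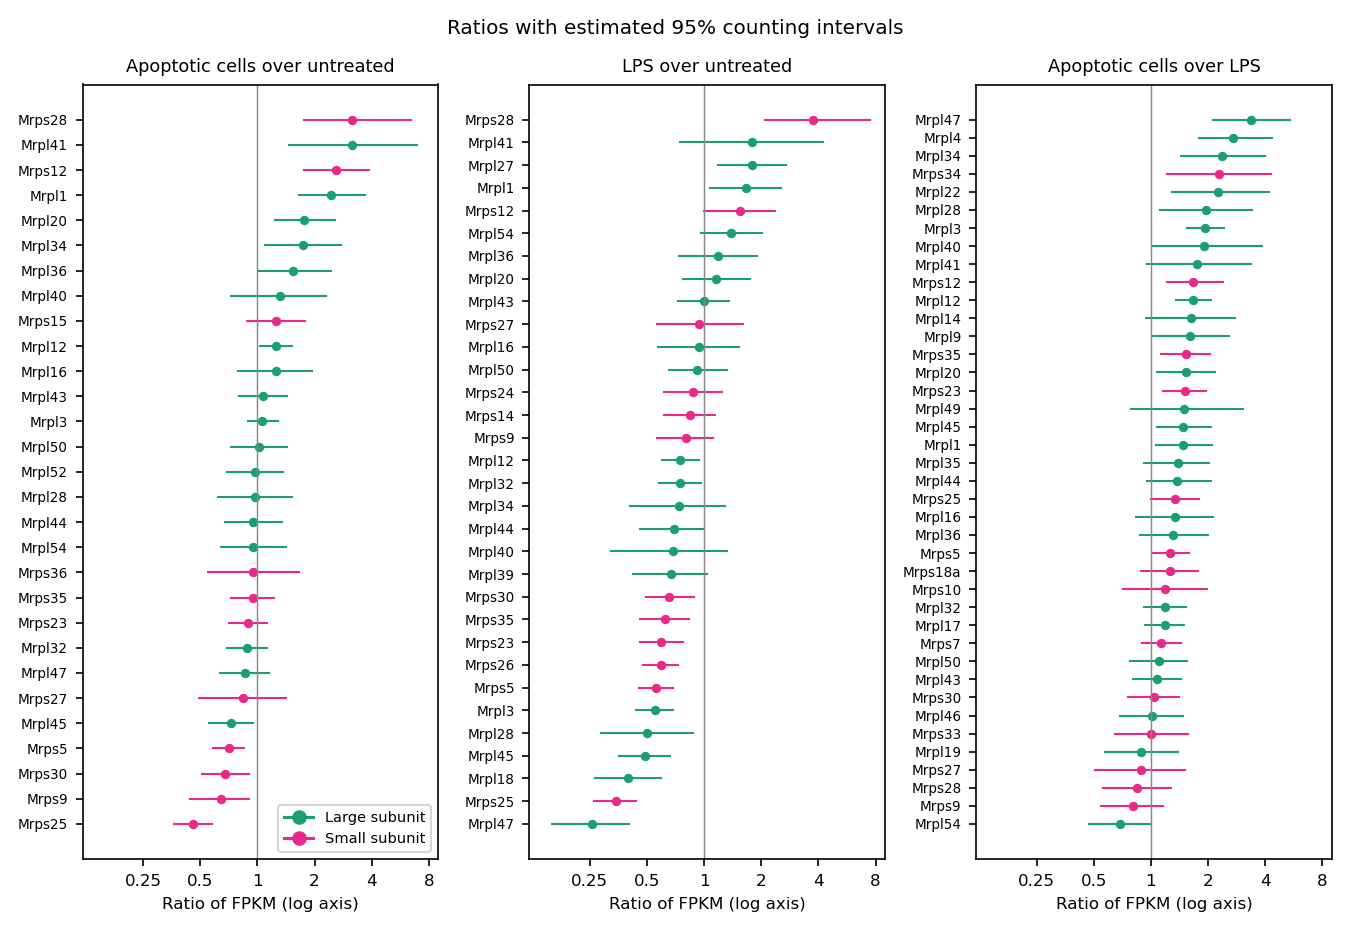
Plain ratio of FPKM for each member above 0 in both libraries (log axis), with its estimated 95% counting interval as a line, coloured by subunit. Mrps28 is the highest in both comparisons with the untreated library, at 3.17 and 3.74, and the intervals cover counting error only.

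The comparison of LPS with no treatment sets an inflammatory stimulus beside the same untreated library. Mrps28 was at least 2-fold higher with LPS, and Mrpl47, Mrps25 and Mrpl18 were at least 2-fold lower. With median-of-ratios scaling Mrpl47 kept that call (-1.12), and Mrps25 (-0.82) and Mrpl18 (-0.67) did not. As deposited, most members were lower with LPS, as were most genes, and with median-of-ratios scaling the members' median turned positive, at 0.20. Of 32 members above 0 in both libraries, 1 was at least 2-fold higher (8.51% over all genes) and 3 were at least 2-fold lower (26.2% over all genes). The members' median was -0.40 (quartiles -0.71 and 0.05), which is 0.01 above the median of all genes. In direction, 24 of 32 were below 0 (66.5% over all genes) and 8 above (33.5%). Median-of-ratios scaling moved the median of all genes from -0.40 as deposited to 0.10, and with it 6 members were higher (Mrps28, Mrpl27, Mrpl41, Mrps12, Mrpl1 and Mrpl54) and 1 lower, against 18.9% and 13.2% over all genes.

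Mrpl47 (chr3:32725397-32737605, minus strand), the counterpart of a bacterial protein near the mouth of the exit tunnel, was lowest by far with LPS: 2.51 FPKM, against 8.43 FPKM after apoptotic cells and 9.86 FPKM without treatment. Its log2 ratio with LPS was -1.63 (plain ratio 0.255, counting interval 0.158 to 0.401). Mrpl18 (chr17:12911349-12916345, minus strand), whose product lies in the central protuberance, stood at 11.6 FPKM after LPS and 29.2 FPKM without treatment, and was listed at 0 with apoptotic cells. That gave a log2 ratio of -1.26, with a counting interval of the plain ratio of 0.266 to 0.591. Mrps25 had a log2 ratio of -1.37 here, lower than with apoptotic cells. Mrps28 had one of 1.78, the highest of the members.

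Other members with LPS lay short of 2-fold on this scale. The next lowest were Mrpl45 (-0.96), whose product anchors the ribosome to the inner membrane, Mrpl28 (-0.92), Mrpl3 (-0.82) and Mrps5 (-0.78). Their plain ratios were 0.489, 0.498, 0.548 and 0.560. The next highest were Mrpl27, a protein near the peptidyl transferase centre (0.80), Mrpl41 (0.73), Mrps12 (0.60) and Mrpl1 (0.60). Of the 32 members, 3 had a counting interval wholly above 1 (19.3% over all genes), Mrpl1, Mrpl27 and Mrps28, and 13 wholly below 1 (43.5% over all genes). The comparisons with the untreated library share that library, so a low or high untreated value moves both. Of Mrps28, Mrpl41, Mrps12 and Mrpl1, each was lowest in the untreated library, and Mrps25 was highest there.

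Apoptotic cells were then set against LPS, the 2 libraries with the same labelled time of 5 h. Mrpl47, Mrpl4, Mrpl34, Mrpl22 and Mrps34 were at least 2-fold higher with apoptotic cells and no member was at least 2-fold lower. Of 40 members above 0 in both libraries, these 5 compare with 15.7% over all genes, and the 0 lower with 5.54% over all genes. The members' median was 0.41 (quartiles 0.16 and 0.72), which is 0.10 above the median of all genes, with 35 of 40 above 0 (69.6% over all genes) and 5 below (30.4%). The median was 0.05 with median-of-ratios scaling, and then 1 member, Mrpl47 (1.11), was at least 2-fold higher, against 9.11% higher and 9.63% lower over all genes. By counting interval 18 members lay wholly above 1 (37.6% over all genes) and 1 wholly below (13.2% over all genes), Mrpl54.

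Mrpl47 had a log2 ratio of 1.42 between these libraries. Mrpl4, a large-subunit protein gene, stood at 23.4 FPKM after apoptotic cells, 8.67 FPKM after LPS and 0 as listed without treatment (log2 ratio 1.33, counting interval of the plain ratio 1.78 to 4.35). Mrpl34 stood at 42.8, 18.04 and 24.5 FPKM after apoptotic cells, with LPS and without treatment, a log2 ratio of 1.20. For this gene the LPS and untreated values were the closer pair. Mrpl22, whose product lines the exit tunnel, stood at 25.05 FPKM after apoptotic cells and 11.0 FPKM after LPS (1.11), and the mitochondria-specific Mrps34 at 15.8 and 6.93 FPKM (1.08). Both were listed at 0 without treatment, and the LPS values of Mrpl22 and Mrps34 rest on fewer than 20 estimated fragments each. Mrpl54 was at the other end, with a log2 ratio of -0.53 (plain ratio 0.688, counting interval 0.473 to 0.985).

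The subunits were set side by side. With apoptotic cells against no treatment, the large subunit had a median log2 ratio of 0.09 over 18 members and the small subunit -0.16 over 11. With LPS against no treatment the medians were -0.40 over 20 and -0.43 over 12, and with apoptotic cells against LPS they were 0.51 over 26 and 0.28 over 14. With median-of-ratios scaling the large-subunit medians in these 3 comparisons were 0.29, 0.20 and 0.14 and the small-subunit medians 0.05, 0.15 and -0.11. The small-subunit median thus changes sign in each, and the large-subunit median changes sign with LPS against no treatment. Placing Mrps18a and Mrps30 with the large subunit, and leaving out Mrps36, gave 0.09 and -0.16, -0.41 and -0.31, and 0.48 and 0.28 in the same order of comparisons, large subunit first. The quartiles of the subunits overlapped in all 3 comparisons, and the difference was not tested.

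**Figure D3:**
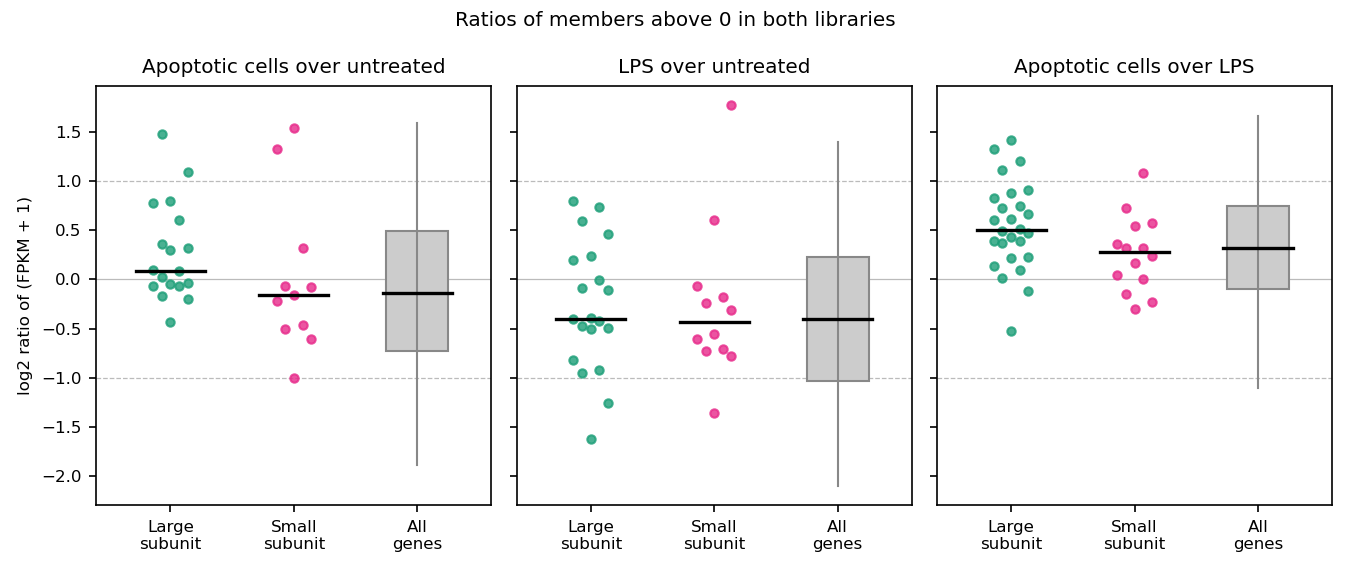
log2 ratio of (FPKM + 1) for large-subunit and small-subunit members (1 point per gene) and for all genes compared, in each comparison. Black bars are medians, the grey box spans the quartiles of all genes and its line the 5th to 95th percentile; the subunit medians with LPS over untreated, -0.40 and -0.43, lie beside that of all genes, -0.40.

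By position in the ribosome, few members of each site could be followed in every library. Of the stalk proteins, Mrpl12 was above 0 throughout, with log2 ratios of 0.32 with apoptotic cells and -0.41 with LPS against no treatment. Mrpl10, which holds the stalk, was listed only with LPS, at 19.97 FPKM, and Mrpl11 only in the untreated library, at 4.21 FPKM. At the exit tunnel and its membrane side, all 3 genes compared with apoptotic cells and all 4 with LPS were below 0 against no treatment as deposited, whereas with median-of-ratios scaling 1 of 3 and 2 of 4 were above 0. With LPS these were Mrpl47 (-1.63), Mrpl45 (-0.96), Mrpl39 (-0.50) and Mrpl44 (-0.50). With apoptotic cells Mrpl45 (-0.44), Mrpl47 (-0.20) and Mrpl44 (-0.06) were nearer to level. Mrpl17 stood at 12.1 FPKM after apoptotic cells and 10.3 FPKM after LPS and was listed at 0 without treatment.

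The central protuberance, at the top of the large subunit, gave 1 ratio with apoptotic cells, that of Mrpl40 (0.36), and 3 with LPS, Mrpl27 (0.80), Mrpl40 (-0.47) and Mrpl18 (-1.26). Mrpl46 stood at 19.3 and 19.1 FPKM after apoptotic cells and LPS, and Mrpl38 at 22.2 FPKM after apoptotic cells only. On the decoding and mRNA side of the small subunit the genes went apart. Mrps28 and Mrps12 were higher in both treated libraries than in the untreated one. Mrps5 stood at 13.6, 10.7 and 19.1 FPKM after apoptotic cells, with LPS and without treatment, lower in both. Mrps24 had a log2 ratio of -0.18 with LPS, and Mrps11 was listed only with LPS, at 6.91 FPKM. Of the genes whose symbols mislead, Mrps30 stood at 8.67, 8.38 and 12.8 FPKM, lower in both treated libraries as deposited but level with LPS under median-of-ratios scaling (0.02), and Mrps36 at 19.7 FPKM after apoptotic cells, 0 as listed with LPS and 20.8 FPKM without treatment.

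By descent, the 15 compared members with a counterpart in the bacterial ribosome had a median of 0.32 with apoptotic cells against no treatment, and the 14 without one had -0.07. With LPS against no treatment these medians were -0.27 over 18 and -0.50 over 14. With apoptotic cells against LPS they were 0.44 over 24 and 0.40 over 16. With median-of-ratios scaling the medians were 0.52 and 0.14, 0.32 and 0.06, and 0.09 and 0.03 in the same order of comparisons. Those of members without a counterpart thus change sign in both comparisons with the untreated library, and that of members with one changes sign with LPS. These are counts and medians of small sets, and the difference was not tested.

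The ratios to the untreated library ran with the length of the annotated transcript. Members with transcripts of at most 1257 bases, the median of the 66, had a median log2 ratio of 0.36 with apoptotic cells (13 genes, 9 of them above 0), and the longer ones had -0.16 (16 genes, 5 above 0). With LPS these medians were 0.20 (13 genes, 7 above 0) and -0.50 (19 genes, 1 above 0). Of all genes compared, of any length, 44.5% were above 0 with apoptotic cells and 33.5% with LPS. The counts above 0 depend on the scaling. With median-of-ratios scaling most of the longer members were above 0 with LPS, among them Mrpl43 (0.60), Mrpl50 (0.47) and Mrps27 (0.47). Others, such as Mrpl47 (-1.12) and Mrps25 (-0.82), stayed below. Over all genes with a length, the medians at the same division were 0.06 and -0.18 with apoptotic cells, and -0.28 and -0.43 with LPS. Spearman's rho between ratio and length was -0.57 over 29 members with apoptotic cells and -0.60 over 32 with LPS, against -0.16 over 3046 and -0.10 over 3081 of all genes. Between apoptotic cells and LPS it was -0.18 over 40 members and -0.11 over 4164 genes. These are correlations across genes of the same libraries, which are not independent, and both comparisons with the untreated library share it. Mrpl1, with 3431 bases, was an exception, higher in both treated libraries, while Mrps25, with 6073 bases, was the longest member and low in both. The part of transcript length in the ratios was not tested.

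**Figure D4:**
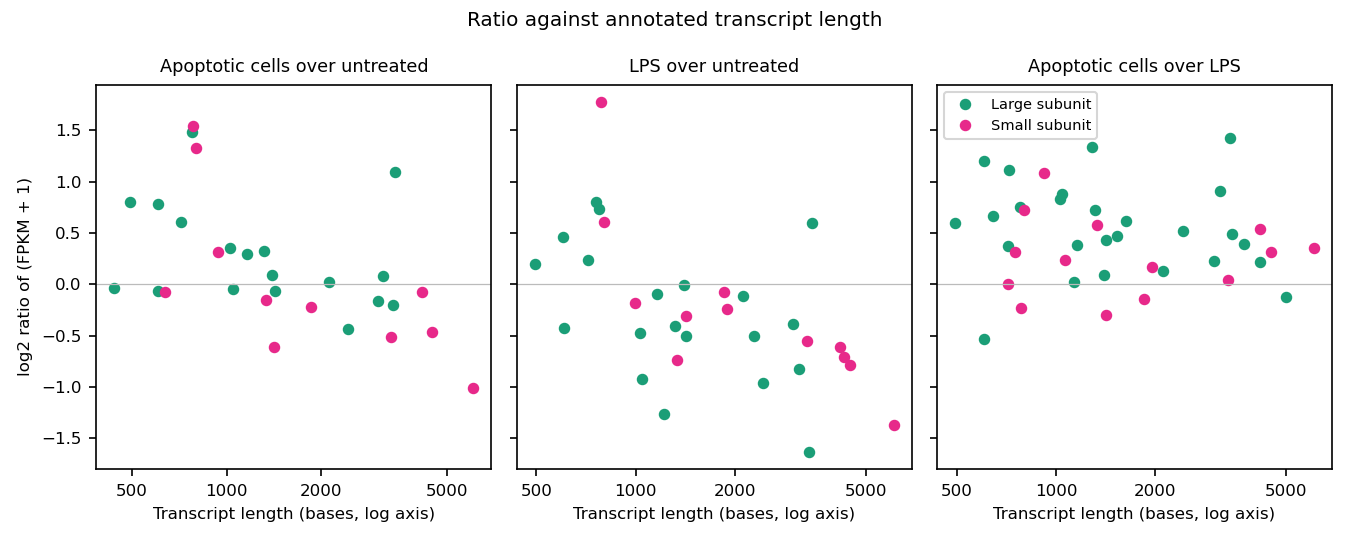
log2 ratio of (FPKM + 1) against the annotated transcript length (bases, log axis), 1 point per member, coloured by subunit, for each comparison. Against the untreated library most short transcripts lie above most long ones (Spearman's rho -0.57 and -0.60), whereas between apoptotic cells and LPS rho is -0.18.

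Gene order was also examined, since divergent pairs can share a promoter. In GENCODE M21, 15 of the 66 members (22.7%) start within 1000 bases, without overlap, of a protein-coding gene running away on the other strand. The share was 6.70% over 16319 protein-coding genes with a row. Pairs whose 5′ ends overlap, such as Mrps11 and Mrpl46, were not counted in either share. Mrps12 starts 172 bases from Sars2, the mitochondrial seryl-tRNA synthetase gene, which stood at 3.26 FPKM after apoptotic cells, 2.74 FPKM after LPS and 0 as listed without treatment. Mrps27 starts 81 bases from Ptcd2, which stood at 10.1, 6.98 and 12.1 FPKM, with log2 ratios against no treatment of -0.24 with apoptotic cells and -0.72 with LPS, where Mrps27 had -0.22 and -0.07. Mrpl50 starts 83 bases from Zfp189, with log2 ratios of -0.45 and -1.08, where Mrpl50 had 0.02 and -0.11. In the pairs of Mrps27 and Mrpl50 the partner had the lower ratio with LPS, and no other pair had both ratios with LPS against no treatment. Mrpl32 starts 75 bases from the proteasome gene Psma2, at 118 FPKM after apoptotic cells, 0 as listed with LPS and 81.8 FPKM without treatment. Of the other 11 pairs, 3 have a partner with no row, not analysed here, and in 8 the partner was listed at 0 without treatment.

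The other genes of mitochondrial translation were taken from lists by function. Of 25 genes of mitoribosome assembly and ribosomal RNA modification with a row, 12 could be compared with apoptotic cells against no treatment, with a median of -0.36, 0 at least 2-fold higher (12.4% over all genes) and 1 lower (16.4%). With median-of-ratios scaling the median was -0.17, with 1 higher and 1 lower (15.97% and 12.7% over all genes). With LPS against no treatment the median was -0.42 over 12, with 0 higher (8.51% over all genes) and 3 lower (26.2%). With median-of-ratios scaling it was 0.09, with 0 higher and 1 lower (18.9% and 13.2% over all genes). Ftsj2, the older symbol of a methyltransferase gene for ribosomal RNA, stood at 1.05, 0.538 and 4.5003 FPKM after apoptotic cells, with LPS and without treatment, lower in both treated libraries (-1.42 and -1.84). Rbfa, an assembly factor of the small subunit, stood at 10.04, 3.22 and 10.7 FPKM, low only with LPS (-1.47), and Mettl15 had -1.16 with LPS. With apoptotic cells against LPS, 2 of 17 assembly genes were at least 2-fold higher, Rbfa (1.39) and Mettl17 (1.46), and 0 lower, where 15.7% and 5.54% of all genes were.

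Of 15 translation factor genes with a row, 5 could be compared with apoptotic cells (median 0.14) and 6 with LPS against no treatment (median -0.42, or 0.16 with median-of-ratios scaling), and none was 2-fold apart as deposited. Tufm, the mitochondrial elongation factor that carries aminoacyl-tRNA, stood at 54.7 FPKM after apoptotic cells, 36.0 FPKM after LPS and 36.7 FPKM without treatment, and its exchange factor gene Tsfm at 13.3, 6.28 and 8.999 FPKM. In both genes apoptotic cells gave the highest value. With apoptotic cells against LPS, 9 factor genes had a median of 0.73. Genes of mitochondrial DNA transcription had medians of -0.44 over 6 with apoptotic cells and -1.01 over 5 with LPS against no treatment, or -0.26 and -0.48 with median-of-ratios scaling. As deposited 1 of 6 and 3 of 5 were at least 2-fold lower (16.4% and 26.2% over all genes), and with that scaling 0 and 2 (12.7% and 13.2%). Polrmt, the mitochondrial RNA polymerase, stood at 3.03, 2.098 and 8.06 FPKM in the apoptotic-cell, LPS and untreated libraries, lower in both treated ones (-1.17 and -1.55). Also at least 2-fold lower with LPS were Rg9mtd1 (-1.01) and 1110008L16Rik (-1.67), older symbols of subunits of mitochondrial RNase P, and the ratios of apoptotic cells to LPS were 0.80 and 1.01 for these genes and 1.00 for Hsd17b10, which encodes the remaining subunit.

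Mitochondrial ribosomal proteins named otherwise had 4 of 7 genes with a row. Chchd1 stood at 39.7, 31.1 and 15.5 FPKM after apoptotic cells, with LPS and without treatment, above the untreated value in both treated libraries (1.30 and 0.96). Gadd45gip1 was level, at 7.35, 8.73 and 8.80 FPKM. Ptcd3 was listed only with apoptotic cells and Mrp63 only in the untreated library. Regulators of mitochondrial genes gave few values: Esrra stood at 8.75, 11.5 and 6.75 FPKM, Yy1 at 16.4 and 17.4 FPKM in the treated libraries and 0 as listed without treatment, Myc at 3.85 and 7.67 FPKM in the treated libraries, and Ppargc1a was listed at 0 in all 3. Import genes had medians of 0.32 over 19 with apoptotic cells and 0.16 over 20 with LPS against no treatment. As deposited, Pam16 alone was at least 2-fold higher with apoptotic cells (1.05) and Hspa9 alone lower (-1.10), where 12.4% and 16.4% of all genes were. With LPS 0 were higher and 2 lower, 1700034H14Rik (-1.42) and Tomm40l (-1.11), where 8.51% and 26.2% of all genes were. With median-of-ratios scaling the import medians were 0.51 with apoptotic cells and 0.76 with LPS. In the first comparison 2 import genes were at least 2-fold higher and 0 lower, where 15.97% and 12.7% of all genes were. In the second 9 were higher and 0 lower, where 18.9% and 13.2% of all genes were. Neither Hspa9, 1700034H14Rik nor Tomm40l thus kept a 2-fold call. As deposited Timm22 was higher with apoptotic cells than with LPS (1.02).

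Set beside the nearest gene groups, members were neither as low as cytosolic ribosomal protein genes nor as high as complex I genes. With apoptotic cells against no treatment, the medians were -0.04 for the members, -0.61 for 44 cytosolic ribosomal protein genes and 0.62 for 15 Nduf genes of complex I. With LPS against no treatment they were -0.40, -0.98 over 46 and -0.08 over 16, and with median-of-ratios scaling they were 0.20, -0.35 and 0.53, so the signs for the members and complex I turn. With apoptotic cells against LPS the medians were 0.41, 0.39 over 46 and 0.71 over 20. At least 2-fold lower with LPS against no treatment, as deposited, were 3 of 32 members, 22 of 46 cytosolic ribosomal protein genes and 3 of 16 complex I genes, where 26.2% of all genes were. With median-of-ratios scaling these counts were 1, 0 and 0, where 13.2% of all genes were, so that contrast depends on the scaling. Mitochondrial aminoacyl-tRNA synthetase genes had medians of 0.13 and -0.54 over 5 genes each. With median-of-ratios scaling the medians of apoptotic cells against no treatment were 0.17, -0.39 and 0.83, and those of apoptotic cells against LPS were 0.05, -0.02 and 0.31. The order of the 3 groups was the same, and no test of the difference between them was made.

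**Figure D5:**
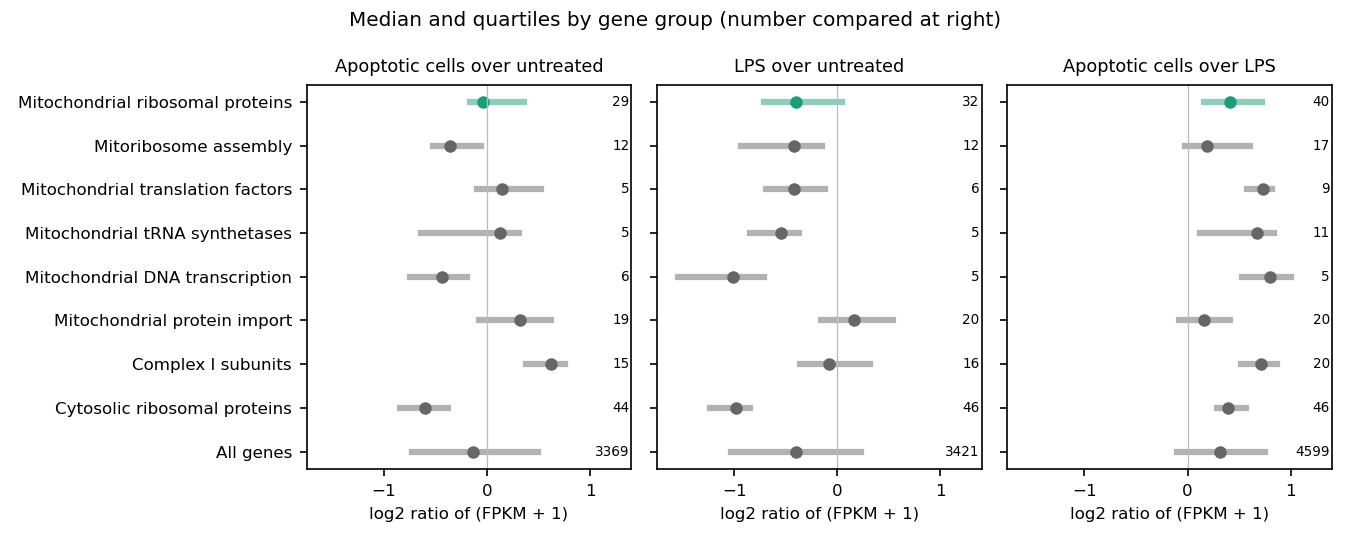
Median (point) and quartiles (bar) of the log2 ratio of (FPKM + 1) for the members, related gene groups and all genes, in each comparison, with the number of genes compared at the right. The members' medians, -0.04, -0.40 and 0.41, lie between those of cytosolic ribosomal protein and complex I genes.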

How the data were processed

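The deposited tables hold 1 value per gene symbol and library, taken as FPKM made by the authors: the labels name no unit, and Cufflinks 2.2.1 is in the submitters' processing notes. Those notes also name cutadapt 1.14, TopHat2 2.1.0, Cuffdiff and the build mm10. Their options, annotation and strandedness are not stated, so reads of antisense genes, pseudogenes and near-identical copies may not be separated.

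Groups, doses and times come from the labels. Ratios are log2((FPKM + 1)/(FPKM + 1)) for genes above 0 in both libraries and averaging 1 FPKM or more across all libraries, a filter that removed no member with a ratio. Called genes are at least 2-fold apart on that scale. Whole reads were not recovered, so no count test was run. Fragments were estimated from a step between the smallest length-scaled values and GENCODE M21 transcript lengths less 200 bases, and exact binomial 95% intervals of ratios follow from them. That step was the best of a range tried, so some step is always found. Its fit, a mean cosine that is 1 for exact steps, was 0.247, 0.271 and 0.313 with apoptotic cells, with LPS and without treatment. The fragments and intervals are therefore rough. Named genes are members 2-fold apart, the highest and lowest levels, members at 0 in 1 library and lists by role. Members and lists were chosen with earlier results of these data known. Symbols of 12 RefSeq members have no row and were not analysed here, though Mrpl57 is present as Mrp63. The NRF1 core was chosen after a longer form of that motif had been counted. Older symbols were matched through RefSeq synonyms. The scripts, in Python 3.11.15 with pandas 2.3.3 and scipy 1.17.1, were tested on simulated data. Alternatives were pseudocounts, filters, fold limits, scalings and the handling of zeros.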

Additional observations from a re-analysis of the deposited data

How the results depend on the processing

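With a listed 0 taken as a value, of 65 members 23 were higher and 13 lower with apoptotic cells against no treatment (median 0.0238; 37.5% and 19.3% over all genes), 20 and 12 with LPS (median -0.0044; 36.4% and 23.4%) and 13 and 11 with apoptotic cells against LPS (24.4% and 19.9%). Median-of-ratios scaling gave medians of 0.17, 0.20 and 0.0513 in that order of comparisons. With it 0 were lower in the first (12.7% over all genes), 6 higher and 1 lower in the second (18.9% and 13.2%) and 1 higher in the third (9.11%). Under it the small-subunit medians were 0.0547, 0.15 and -0.11 and the large-subunit median with LPS was 0.20. Upper-quartile scaling gave a first median of 0.0008 with 0 lower (15.4% over all genes), and 3 higher in the third (13.1%). A pseudocount of 5 left 0 lower, 1 lower and 2 higher in the same order (6.77%, 9.38% and 6.04% over all genes). No pseudocount, an alternative chosen after seeing the data, gave 5 lower with LPS (33.8% over all genes). Genes above 0 in all 3 libraries left 2 of 26 members higher with apoptotic cells against LPS (16.05% over all genes). At 1.5-fold, 7 members were higher and 2 lower in the first comparison (22.1% and 30.3% over all genes), 5 and 10 in the second (15.9% and 42.7%), and 14 higher in the third (33.4%). At 4-fold the counts were 0 in every comparison, where 2.85%, 1.99% and 3.22% of all genes were higher and 4.24%, 5.67% and 1.96% lower. The cause of these differences was not tested, except that a lower fold limit or a listed 0 adds genes by construction. Of these comparisons' medians and counts under the alternatives, 4 changed sign, 29 moved (counts by over 1.5 times) and 69 moved by less or not at all. No paired analysis was possible because each condition has 1 library, and for the same reason no replicate could be left out. Depth limits the shortest and lowest members most: 6 LPS values and 2 untreated values rest on fewer than 20 estimated fragments.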
